A study of Mus musculus with 21 samples.

Results

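The genes described here encode 5 subunits of the NADPH oxidases on autosomes, Cyba, Ncf1, Ncf4, Rac2 and Nox4, and were chosen by symbol out of 50406 genes summed from the deposited transcript estimates. They were read in 21 RNA-seq libraries from wildtype mice, 10 of polymorphonuclear neutrophils (PMNs, labelled as isolated from blood) and 11 of kidney tubular epithelial cells (TECs). Each cell type was taken 24 h after sham surgery or after ischemia-reperfusion injury (IRI, made by 32 min of pedicle clamping), with or without remote ischemic preconditioning (RIPC, 3 cuff occlusions of a hind limb for 5 min each, 15 min before injury). The mice were male C57BL/6, 8 to 12 weeks old. In the study's methods TECs were drawn from digested kidneys with beads against prominin-1, a proximal tubule marker. Of the 8 groups, PMN sham control, PMN IRI control and TEC IRI control held 2 libraries each and the other groups 3 each. The labels do not say which libraries came from the same animal, so the tests measure the spread between libraries.

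NADPH oxidases carry electrons from NADPH across a membrane to oxygen and so make superoxide or hydrogen peroxide. In the phagocyte enzyme a membrane heterodimer, of which p22phox (Cyba) is the smaller chain, is switched on by cytosolic proteins, among them the organizer p47phox (Ncf1), p40phox (Ncf4), which binds a phosphoinositide of the phagosome, and the small GTPase Rac2 of blood cells. Nox4 is a catalytic subunit known from the kidney tubule, needs p22phox but not the cytosolic subunits, and releases mainly hydrogen peroxide. Other oxidase subunits of the phagocyte enzyme were not analysed here.

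In the mouse genome (GRCm38, Gencode annotation) Cyba lies at chr8:122424776-122432930 on the minus strand, Ncf1 at chr5:134220053-134229625 on the minus strand, and Nox4 at chr7:87246096-87398710 on the plus strand. Ncf4, at chr15:78244801-78262580 on the plus strand, and Rac2, at chr15:78559167-78572783 on the minus strand, share a chromosome. The annotation gives 3 transcripts of Cyba, 7 of Ncf1, 6 of Ncf4, 3 of Rac2 and 8 of Nox4.

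The Nox4 reads of PMNs and TECs were assigned to different transcripts, and these part after exon 2, which ends at position 87247583. The reference bases around that junction are shown because they differ between the 3 transcripts. The last 15 bases of exon 2 are in lower case and the first 15 bases of the next exon in capitals. Reads across the junction were not counted. Exon 3 starts at 87295784 in the coding transcript Nox4-201 and at 87295788, 4 bases further on, in Nox4-205, annotated for nonsense-mediated decay. The next and last exon of Nox4-204, a transcript annotated as non-coding, is 809 bases at chr7:87287173-87287981.
Nox4-201: caccaaatgttgggcCTAGGATTGTGTTTA
Nox4-205: caccaaatgttgggcGATTGTGTTTAAGCA
Nox4-204: caccaaatgttgggcGAAGATCTGCAAGTA

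The libraries held 20881334 to 51624602 assigned reads (median 29259846). Levels are given in CPM, counts scaled to a common library size with 1 normalisation of all 21 libraries, and changes as log2 differences with their SE from edgeR's quasi-likelihood test, with p-values adjusted over all genes tested and a threshold of 0.05. Summed levels of 10 neutrophil marker genes were 6060 to 33500 CPM in PMN libraries. In TEC libraries they were 1.62 to 32.4 CPM after sham surgery and 34.5 to 109 CPM after IRI. Of the 6 neutrophil markers tested in TECs, 4 were higher after IRI at an unadjusted p below 0.05 and 0 were called. Such a p was reached by 15% of all genes in either direction. Mmp9, Ly6g, Camp and Ltf had too few reads in TECs to be tested. The summed level of 10 proximal tubule markers was 2590 to 16500 CPM in TECs. It was also 535 to 10900 CPM in PMNs, and in PMN sham control 2 it reached 10900 CPM beside 9540 CPM for the neutrophil markers, so the data go against a label of neutrophils alone. The summed level of 9 monocyte and macrophage markers was 970 to 9580 CPM in PMNs and 3.22 to 49.2 CPM in TECs. In PMN sham RIPC 2 it reached 9580 CPM beside 9550 CPM for the neutrophil markers. The part of such tubule or macrophage RNA in the PMN results below, those against TECs included, was not tested.

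The first question is how the subunits were distributed between the 2 cell types. Ncf1, Ncf4 and Rac2, the cytosolic subunits, were far higher in PMNs than in TECs, Nox4 was higher in TECs, and Cyba did not differ past the threshold in edgeR. After sham surgery 3 of the 5 genes were called higher and 1 lower in PMNs, where 2.62% of all 31769 genes tested were called, 1.49% higher and 1.13% lower. After IRI the same count was obtained, against 2.67% of all genes, 1.49% higher and 1.17% lower. Fewer cells of a type and less RNA per cell cannot be told apart in these bulk libraries.

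**Figure D1:**
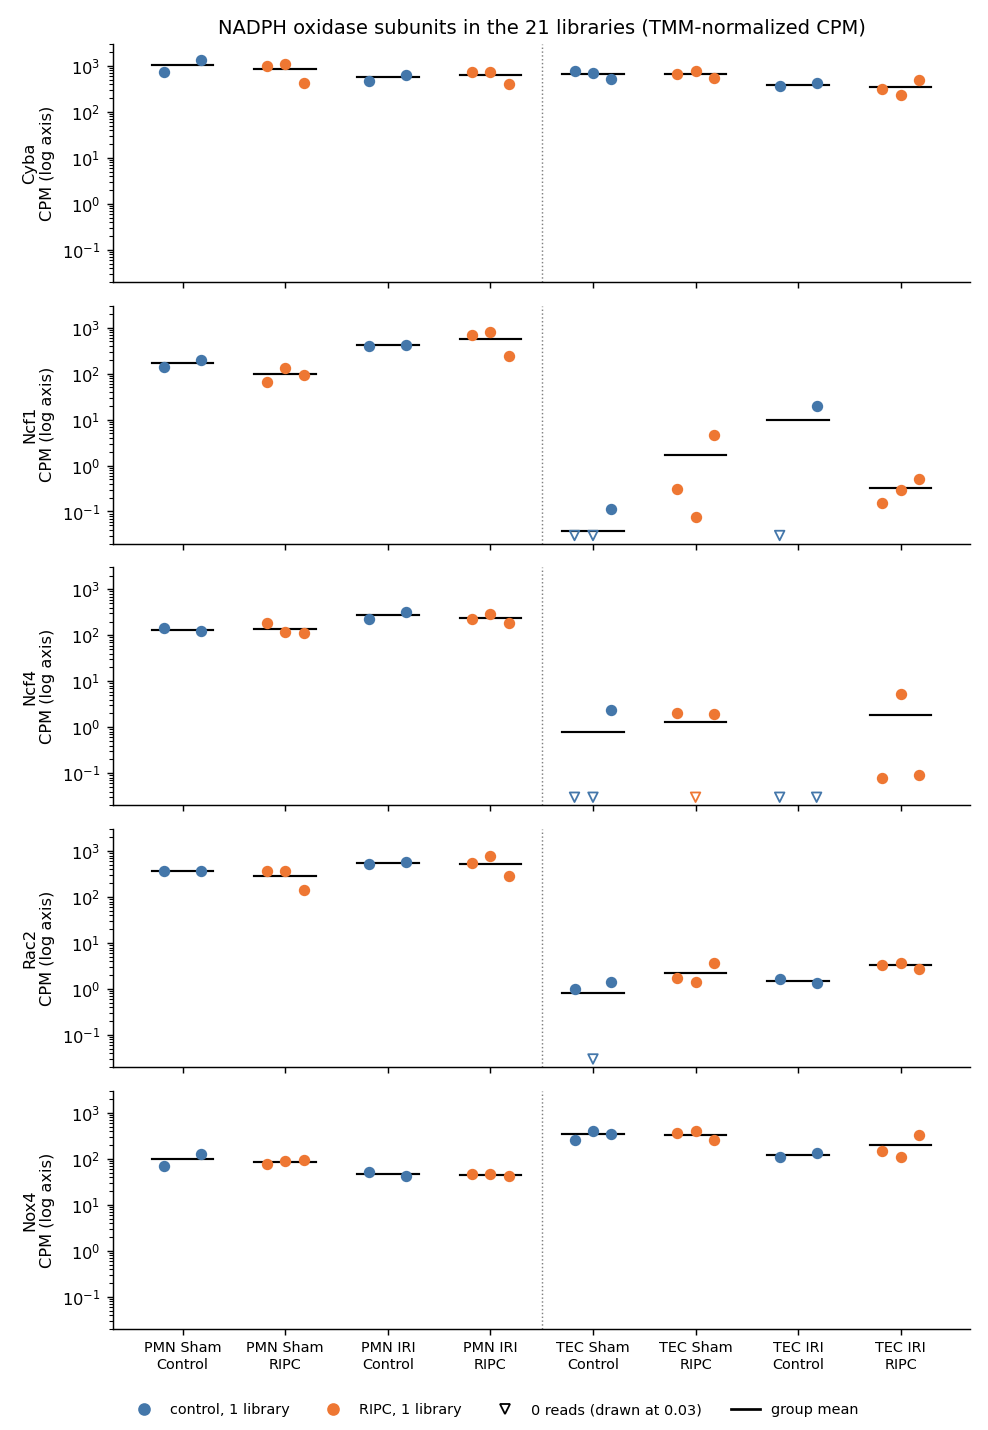
Level of each of the 5 genes in CPM (log axis) in the 21 libraries, 1 point per library, arranged by group, with a bar at each group mean and open triangles for libraries at 0 reads. The points of Ncf1, Ncf4 and Rac2 in PMNs lie above every TEC point, those of Nox4 after either surgery lie lower in PMNs than in TECs of that surgery, and those of Cyba overlap.

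Cyba, the membrane partner shared by both kinds of oxidase, was abundant in every library. In PMNs it measured 730.5 and 1319 CPM in sham control, 988.6, 1103 and 424.4 CPM in sham RIPC, 481.1 and 640.7 CPM in IRI control, and 744.8, 746.5 and 399.5 CPM in IRI RIPC. In TECs the values were 774.8, 698.4 and 522.8 CPM in sham control, 678.6, 778.2 and 551.7 CPM in sham RIPC, 358.8 and 426.4 CPM in IRI control, and 310.4, 238.7 and 503.7 CPM in IRI RIPC. The 2 cell types overlapped after either surgery. Cyba was 0.47 ± 0.36 log2 units higher in PMNs than in TECs after sham surgery (95% confidence interval -0.27 to 1.22, adjusted p = 0.525) and 0.68 ± 0.38 after IRI (adjusted p = 0.427). With apeglm the difference after IRI was called (0.68, s-value 0.00539), beside 9.34% of all genes.

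Ncf1 encodes the organizer that brings the cytosolic complex to the membrane once phosphorylated. It was read at 141.4 and 197.6 CPM in PMN sham control, 66.47, 130.8 and 91.29 CPM in sham RIPC, 399.2 and 418.8 CPM in IRI control, and 683.9, 790.3 and 240.8 CPM in IRI RIPC. In TECs 10 of 11 libraries were at 4.687 CPM or below, 3 of them at 0, and TEC IRI control 2 alone stood at 19.45 CPM with 425 reads. Every PMN library lay above every TEC library, as was so for 3.76% of all genes after sham surgery and 3.94% after IRI. The difference was 8.93 ± 1.39 log2 units after sham surgery (adjusted p = 0.000689) and 8.09 ± 1.55 after IRI (adjusted p = 0.00544). The value after IRI turns on TEC IRI control 2 and was 13.53 without it, and the sham value ran up to 10.41 when TEC sham RIPC 3 was left out. Of the 425 reads in TEC IRI control 2, 90.54% were assigned to the transcript Ncf1-205, whereas in PMNs Ncf1-202 took 90.7% of the gene's reads. Over single PMN libraries the shares were 21.6 to 100% for Ncf1-202 and 0 to 12.48% for Ncf1-205. Ncf1-202 has 0 stretches of 50 bases to itself, so this split is an estimate. Summed neutrophil markers in TEC IRI control 2 were 84.8 CPM, within the 34.5 to 109 CPM of TEC IRI libraries.

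Ncf4, whose product stabilises the complex on phagosomes, was read at 143.3 and 124.7 CPM in PMN sham control and at 183.6, 119.5 and 115 CPM in sham RIPC. After IRI its levels were 222.5 and 328 CPM in control and 227.1, 296.2 and 189.8 CPM in RIPC PMNs. TEC libraries held 0 to 126 reads (median 2), 5 of the 11 at 0. PMNs exceeded TECs by 7.07 ± 1.49 log2 units after sham surgery (adjusted p = 0.0108) and were called higher after IRI as well (adjusted p = 0.00587). With reads set against transcript length the sham call was lost (5.43, adjusted p = 0.0723). The size of the change after IRI depends on TEC libraries at or near 0 and is given only by its levels, 253 ± 57.2 CPM (SD, n = 5) in PMNs and 1.1 ± 2.36 CPM (SD, n = 5) in TECs. Without TEC sham control 3 the sham difference was 10.64 log2 units.

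Rac2, the GTPase that completes the active phagocyte enzyme, was read at 376.2 and 371.1 CPM in PMN sham control and 366.2, 367.6 and 144.3 CPM in sham RIPC. After IRI PMNs held 537 and 590.3 CPM in control and 553.1, 774.1 and 282.5 CPM in RIPC. The 11 TEC libraries held 0 to 88 reads (median 42) or 0 to 3.722 CPM. The difference was 7.94 ± 0.86 log2 units after sham surgery (adjusted p = 1.67e-05) and 7.95 ± 1.01 after IRI (adjusted p = 0.000153), with no overlap of the cell types. For Ncf1, Ncf4 and Rac2 both calls were made again whichever library was left out.

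Nox4, the tubular catalytic subunit, went the other way. TECs held 261.8, 412.8 and 350.1 CPM in sham control, 362.5, 395.9 and 256.1 CPM in sham RIPC, 109.3 and 136.3 CPM in IRI control, and 147.1, 112.1 and 330.9 CPM in IRI RIPC. PMNs held 70.63 and 124.6 CPM in sham control, 75.44, 88.96 and 96.16 CPM in sham RIPC, 52.72 and 42.22 CPM in IRI control, and 46.33, 47.43 and 43.01 CPM in IRI RIPC. All PMN libraries were below all TEC libraries of the same surgery, as were 3.75% of all genes after sham surgery and 2.94% after IRI. Nox4 was 1.88 ± 0.44 log2 units lower in PMNs after sham surgery (a 3.69-fold difference, adjusted p = 0.0196) and 1.74 ± 0.45 lower after IRI (3.34-fold, adjusted p = 0.0384). With reads set against the length of the transcripts they came from, the differences were -0.78 (adjusted p = 0.308) and -0.79 (adjusted p = 0.382), so neither call was made. The sham call was also lost without PMN sham control 1 or PMN sham control 2, and the IRI call without any 1 of 8 of the 10 libraries (adjusted p from 0.0279 to 0.357).

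Per unit of length, levels can be set beside each other between genes. TPM here divides the reads of each transcript by its effective length and sums over the gene, so reads on short transcripts weigh more. In PMNs 3.72% of the Rac2 reads were assigned to Rac2-203 (254 bases), and in TECs 100% to Rac2-201 (3038 bases). PMN sham control 1 had 534.5 TPM at 376.2 CPM of Rac2, and TEC sham RIPC 1 had 0.2804 TPM at 1.708 CPM. The place of Rac2 thus depends on that split and was not recomputed from Rac2-201 alone. Over the 10 PMN libraries the order in TPM was Cyba at 933 ± 368, Rac2 at 546 ± 260, Ncf4 at 167 ± 84.2, Ncf1 at 65.2 ± 49.2 and Nox4 at 29.6 ± 8.55 (SD). On this scale, with all transcripts summed, Rac2 lay above Ncf4, and Ncf4 above Ncf1, in all 5 sham and all 5 IRI libraries. After sham surgery Rac2 (237 to 534 TPM), Ncf4 (61.2 to 145 TPM) and Ncf1 (14.6 to 40.5 TPM) did not overlap. After IRI Ncf4 (167 to 320 TPM) and Ncf1 (49.8 to 151 TPM) did not overlap either, while the lowest Rac2 library (298 TPM) fell within the Ncf4 range. Cyba and Rac2 overlapped after both surgeries, and Cyba was the higher in 5 of 5 sham but 3 of 5 IRI libraries. The last place changed with surgery, since Ncf1 averaged 27 TPM and Nox4 37.3 TPM after sham surgery, with overlap, and 103 and 21.9 TPM after IRI, without. Of the Nox4 reads in PMNs, 72.7% after sham surgery and 88.9% after IRI were assigned to the non-coding Nox4-204. The Nox4 places in PMNs are therefore not those of coding RNA. In the 11 TEC libraries Cyba stood at 598 ± 225 TPM (311 to 896) and Nox4 at 41.5 ± 12.1 TPM (22.4 to 57.3), with no overlap. The means of Ncf4, Ncf1 and Rac2 in TECs were 2.58, 0.403 and 0.321 TPM.

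The second question is how levels after IRI differed from those after sham surgery in each cell type, taken as the mean of RIPC and control. In PMNs the cytosolic subunits Ncf1 and Ncf4 had higher levels after IRI and Nox4 lower levels in every library, but no gene of the 5 passed the adjusted threshold in edgeR. At an unadjusted p below 0.05, 2 were higher and 1 lower, and DESeq2's Wald test called 1, Ncf1, beside 7.82% of all genes. DESeq2 with shrunken changes (apeglm, s-value under 0.01) called Ncf1, Ncf4 and Nox4, beside 8.3% of all genes. In edgeR 0.416% of all 25002 genes tested were called, and 11.8% had an unadjusted p below 0.05, 6.85% higher and 4.98% lower.

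Ncf1 showed the widest separation. Its 5 IRI libraries (240.8 to 790.3 CPM) all lay above its 5 sham libraries (66.47 to 197.6 CPM), as was so for 3.43% of all genes. The change was 1.91 ± 0.39 log2 units, or 3.75-fold (95% confidence interval 1.02 to 2.79, adjusted p = 0.112). DESeq2 gave 1.92 (adjusted p = 0.00343), and edgeR without the filter on low counts, which called 2.5% of all genes, gave 1.95 (adjusted p = 0.00391).

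The other cytosolic subunits shifted less. Ncf4 was at 189.8 to 328 CPM after IRI and 115 to 183.6 CPM after sham surgery, again without overlap, a difference of 0.89 ± 0.3 log2 units (1.85-fold, adjusted p = 0.359). For Rac2 the difference was 0.72 ± 0.37 (adjusted p = 0.43), and the IRI RIPC library at 282.5 CPM lay among the sham libraries.

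The membrane subunits had lower means after IRI. Nox4 in PMNs measured 42.22 to 52.72 CPM after IRI, below all sham libraries (70.63 to 124.6 CPM), as held for 2.08% of all genes. Its difference was -1 ± 0.38 log2 units (adjusted p = 0.398). Most of this level was the non-coding Nox4-204, with 72.7% of the Nox4 reads after sham surgery and 88.9% after IRI. With the processed and retained-intron transcripts left out, a setting added after seeing the data, the Nox4 difference was -2.74 (adjusted p = 0.413 in edgeR). Cyba differed by -0.66 ± 0.35 (adjusted p = 0.443) and its libraries overlapped. Marker sums moved between the same libraries. The proximal tubule sum was 1230 to 10900 CPM after sham surgery and 535 to 917 CPM after IRI, with 9 of 10 genes lower at an unadjusted p below 0.05. The monocyte and macrophage sum (9 genes) was 3000 to 9580 CPM after sham surgery and 970 to 2130 CPM after IRI, with 5 genes lower. The neutrophil sum was 6060 to 25500 CPM after sham surgery and 12500 to 33500 CPM after IRI, with 5 genes higher. The tubular injury sum (5 genes) was 290 to 1730 CPM after sham surgery and 727 to 6480 CPM after IRI, with 2 genes higher. None of these marker genes passed the adjusted threshold in edgeR. Without PMN sham control 2, the library richest in tubule markers, the differences were 2.1 for Ncf1, 0.9 for Ncf4, 0.78 for Rac2, -0.7 for Nox4 and -0.35 for Cyba, with none called and 60 genes called in all. The part of these markers in the differences of the 5 subunits was not tested beyond that.

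**Figure D2:**
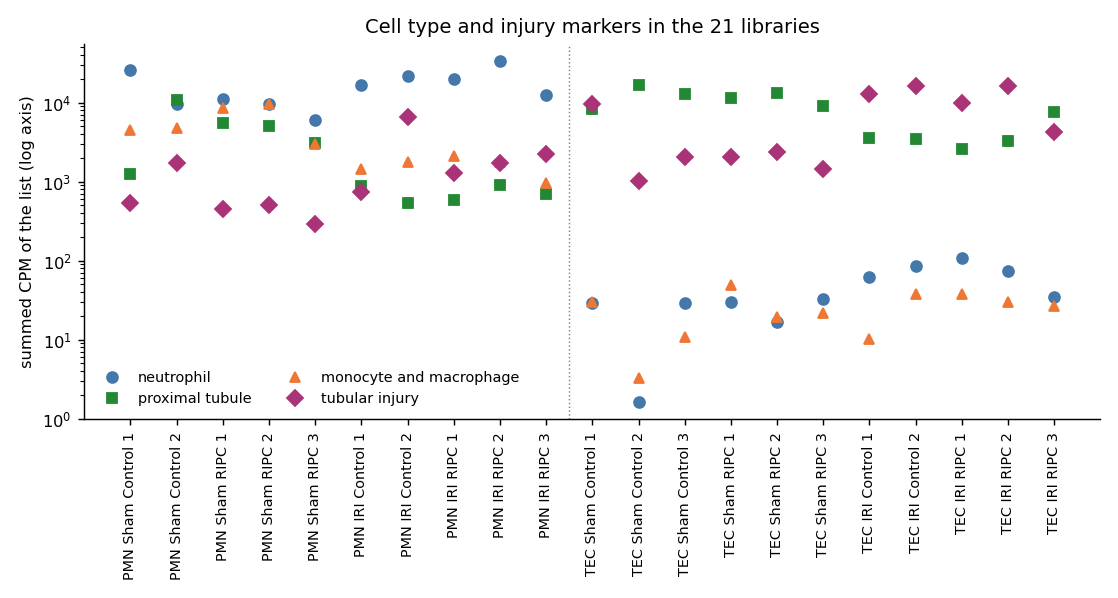
Summed CPM (log axis) of the neutrophil, proximal tubule, monocyte and macrophage and tubular injury marker lists in each of the 21 libraries. In PMNs the proximal tubule and the monocyte and macrophage sums are lower after IRI than after sham surgery, with no overlap.

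In TECs both membrane subunits had lower levels after IRI, and neither passed the adjusted threshold in edgeR or in DESeq2's Wald test, which called 0 of the 5 and 8.62% of all genes. With apeglm both were called, beside 9.67% of all genes. In edgeR 2 of the 5 were lower at an unadjusted p below 0.05. Of 25917 genes tested in edgeR 1.4% were called, and 15% had an unadjusted p below 0.05, 8.6% being lower. The median difference of all tested genes in this comparison was 0.15 log2 units. Mean Cyba levels were 667 ± 109 CPM after sham surgery (SD, n = 6) and 368 ± 102 CPM after IRI (SD, n = 5), and its highest IRI library (503.7 CPM) was below its lowest sham library (522.8 CPM), as every IRI library was for 3.16% of genes. Its difference was -0.88 ± 0.3 log2 units (1.84-fold, adjusted p = 0.204).

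Mean Nox4 levels in TECs were 340 ± 66.6 CPM (SD, n = 6) after sham surgery and 167 ± 93 CPM (SD, n = 5) after IRI. The difference was -1.17 ± 0.37 log2 units (2.25-fold, adjusted p = 0.161). Of the IRI libraries 4 lay between 109.3 and 147.1 CPM, and TEC IRI RIPC 3, at 330.9 CPM, lay among the sham libraries. That library had the highest proximal tubule sum (7670 CPM, the others 2590 to 3560) and the lowest tubular injury sum (4230 CPM, the others 9880 to 16100) of the 5. Without it the Nox4 difference was -1.45 (adjusted p = 0.0378). This was the 1 fit of 11, each leaving out 1 library, in which Nox4 was called. The same fit called 714 genes in all, against 363 with every library. Of the 10 proximal tubule markers 5 were called lower after IRI in TECs, and the part of that shift in the Nox4 and Cyba values was not tested. Ncf1, Ncf4 and Rac2, near 0 in these cells, had adjusted p-values of 0.551, 0.554 and 0.92.

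**Figure D3:**
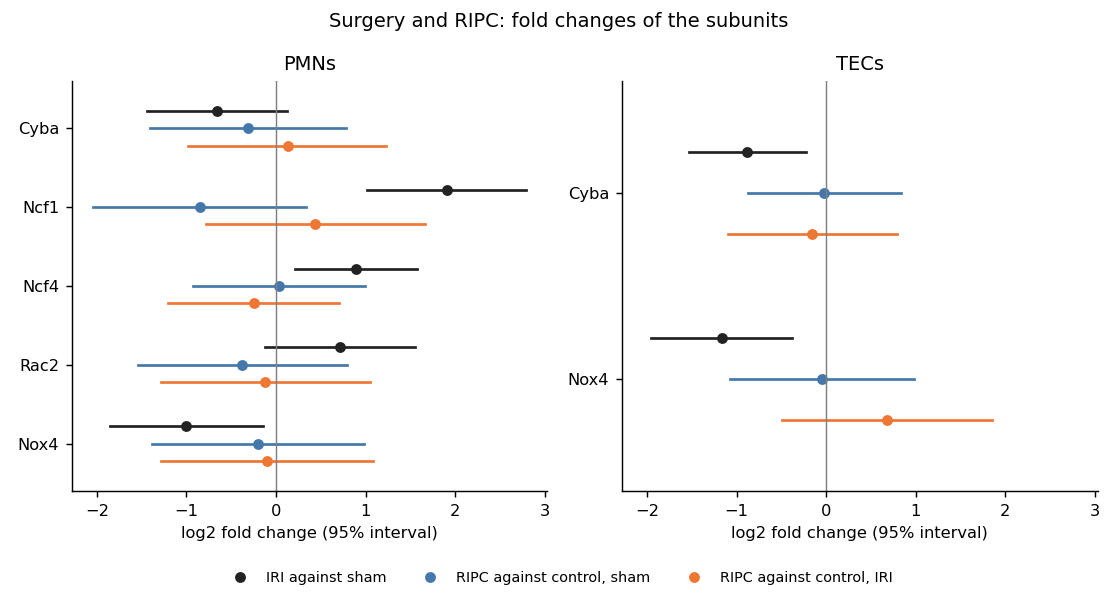
Log2 difference with its 95% confidence interval, from edgeR, for IRI against sham surgery and for RIPC against control after each surgery, for the 5 genes in PMNs (left) and for Cyba and Nox4 in TECs (right). The IRI intervals of Ncf1, Ncf4 and Nox4 in PMNs and of both genes in TECs clear 0 before adjustment over all genes, and every RIPC interval spans 0.

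Whether the 2 cell types differed in their response to IRI was tested directly. None of the 5 genes and 0% of all 31769 genes were called at the adjusted threshold in edgeR, while 0 of the 5 and 9.76% of all genes had an unadjusted p below 0.05, and DESeq2's Wald test called none of the 5 and 7.54% of all genes. Without the filter on low counts edgeR called Ncf4 (4.35, adjusted p = 0.0353), beside 1.66% of all genes. The response of Nox4 differed by 0.14 log2 units between the cell types and that of Rac2 by 0.01. For Ncf4 the term was 4.3 ± 2.1 (adjusted p = 0.527), resting on TEC libraries near 0.

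The third question is whether levels of the subunits differed with RIPC. No member was called, and none had an unadjusted p below 0.05, in either surgery or cell type. In edgeR few of all genes were called either, 0.004% in sham PMNs, 0% in PMNs after IRI, 0% in sham TECs and 0.00386% in TECs after IRI. At an unadjusted p below 0.05 these shares were 4.6%, 2.72%, 4.53% and 4.35%. DESeq2's Wald test also called none of the 5, but called 3.25%, 1.72%, 1.64% and 2.7% of all genes in the same order.

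In sham PMNs, Ncf1 was at 96.2 ± 32.4 CPM (SD, n = 3) with RIPC and 170 ± 39.8 CPM (SD, n = 2) without, all RIPC libraries being lower. The difference was -0.85 ± 0.53 log2 units (95% confidence interval -2.04 to 0.34, adjusted p = 0.705). Rac2 was likewise lower in all RIPC libraries, by -0.38 ± 0.51 (adjusted p = 0.964), as were 8.24% of all genes. After IRI, Ncf1 in PMNs was at 572 ± 291 CPM (SD, n = 3) with RIPC and 409 ± 13.9 CPM (SD, n = 2) without, a difference of 0.44 ± 0.54 (95% confidence interval -0.78 to 1.66). The RIPC libraries lay on both sides of the control libraries. The difference between these effects, 1.29 ± 0.76, did not pass either (95% confidence interval -0.43 to 3, adjusted p = 0.779), and 0% of all genes were called for it in edgeR, 5.74% at an unadjusted p below 0.05. In TECs the corresponding shares were 0% and 7.21%, with 1 of the 5 genes, Ncf1, lower at an unadjusted p below 0.05. Its term was -10.26 (adjusted p = 0.689), and 0.68 without TEC IRI control 2.

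For TECs the RIPC difference of Cyba was -0.02 log2 units after sham surgery (95% confidence interval -0.87 to 0.83) and -0.16 after IRI (-1.1 to 0.79). That of Nox4 was -0.05 after sham surgery (-1.07 to 0.98) and 0.68 ± 0.55 after IRI (-0.49 to 1.85, adjusted p = 0.837), where the RIPC mean of 197 ± 118 CPM (SD, n = 3) includes the library at 330.9 CPM and the control mean was 123 ± 19.1 CPM (SD, n = 2). In TECs after IRI the low Rac2 level was higher in all RIPC libraries (2.678 to 3.722 CPM) than in both control libraries (1.674 and 1.373 CPM), as held for 7.76% of all genes, with a fitted difference of 1.11 ± 2.38 (adjusted p = 1).

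At the level of transcripts, the Nox4 reads of PMNs were largely of another kind than those of TECs. Nox4-204, the non-coding transcript whose junction is shown above, held 78.6% of all Nox4 reads in PMNs and 13.8% in TECs. The coding Nox4-201 had 0 reads in all 10 PMN libraries. Of the 1110 stretches of 50 bases in Nox4-204, 61 (5.5%) also occur in 4 other genes. Nox4-201 and Nox4-205 have 0 such stretches of their own, so the split between those transcripts is uncertain. Nox4-205, annotated for nonsense-mediated decay, was assigned 33.85% of the Nox4 reads in TECs and 56.36% in TEC IRI control. The Nox4 level outside Nox4-204 can therefore not be read as coding RNA alone.

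Reads assigned to Nox4-204 numbered 858 to 1575 in 19 of the 21 libraries, 685 in TEC sham RIPC 2 and 105 in TEC sham control 2. In CPM it was 66.2 ± 5.79 in sham PMNs (SD, n = 5), 41.2 ± 6.42 in IRI PMNs (SD, n = 5), 31.9 ± 16.1 in sham TECs (SD, n = 6) and 49.6 ± 11 in IRI TECs (SD, n = 5). The remaining Nox4 transcripts followed the cell types. They summed to 13.54 and 59.28 CPM in PMN sham control, 6.687, 22.01 and 23.35 CPM in sham RIPC, 0.08538 and 3.877 CPM in IRI control, and 7.749, 9.254 and 4.94 CPM in IRI RIPC. The highest PMN value, 59.28 CPM, was in PMN sham control 2, the library with the highest proximal tubule sum. In TECs the same transcripts stood at 308 ± 78.8 CPM (SD, n = 6) after sham surgery and 118 ± 92.5 CPM (SD, n = 5) after IRI. A further fit left out the processed Nox4-204 and the retained-intron Nox4-206, a choice made after seeing the data. In it PMNs differed from TECs by -3.6 log2 units after sham surgery (adjusted p = 0.0159) and by -4.78 after IRI (adjusted p = 0.00385).

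**Figure D4:**
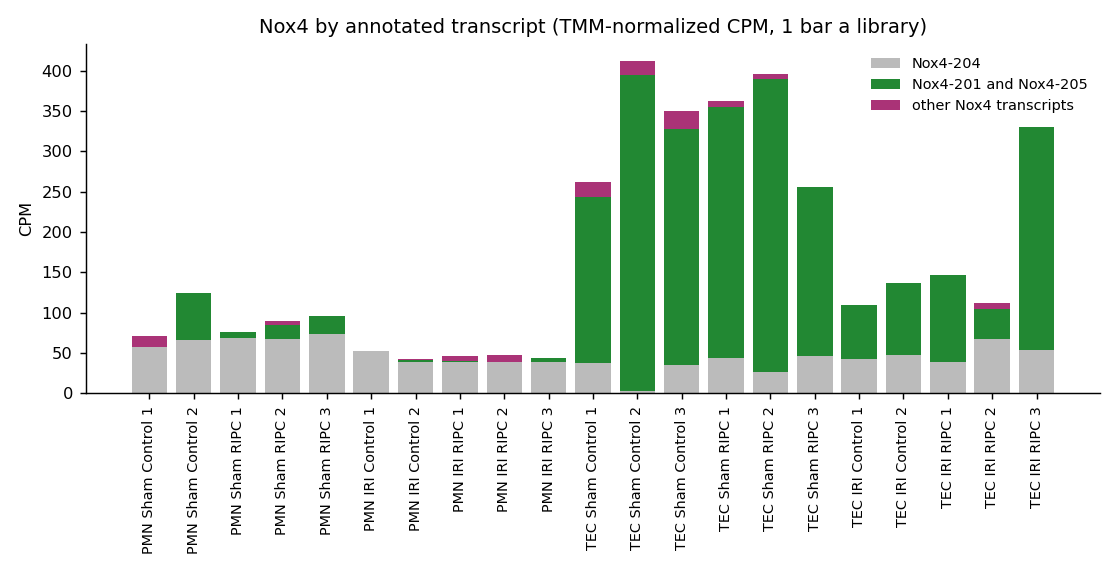
Nox4 level in CPM in each library, divided into Nox4-204 (grey), Nox4-201 with Nox4-205 (green) and the other Nox4 transcripts (purple). Nox4-204 holds most of the level in PMNs (78.6% of their Nox4 reads), and the green part most of it in TECs.

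The Ncf4 reads also divided. Its spliced transcripts measured 128 ± 35.3 CPM in sham PMNs and 190 ± 45.6 CPM in IRI PMNs (SD, n = 5 each). The transcripts annotated with a retained intron measured 16.88 and 0 CPM in sham control, 0, 0 and 29.39 CPM in sham RIPC, 31.8 and 92.09 CPM in IRI control, and 79.22, 60.87 and 48.84 CPM in IRI RIPC. All IRI libraries were thus above all sham libraries for the retained-intron transcripts, but narrowly, the closest being 31.8 and 29.39 CPM. Their shares of the gene's reads overlapped, at 14.29 to 34.89% after IRI and 0 to 25.57% after sham surgery. The separation in CPM was not tested or set against that of other transcripts. The division of reads between transcripts is an estimate. Ncf4-204, a retained-intron transcript, has 33 of its 287 stretches to itself. With spliced transcripts alone the Ncf4 difference after IRI was 0.58 log2 units (adjusted p = 0.488). In TECs the spliced transcripts had 0 reads in all 6 sham libraries, so that the sham PMN mean was at least 1140-fold higher than the mean floor of 3 reads per library. That floor covers counting error only.

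**Figure D5:**
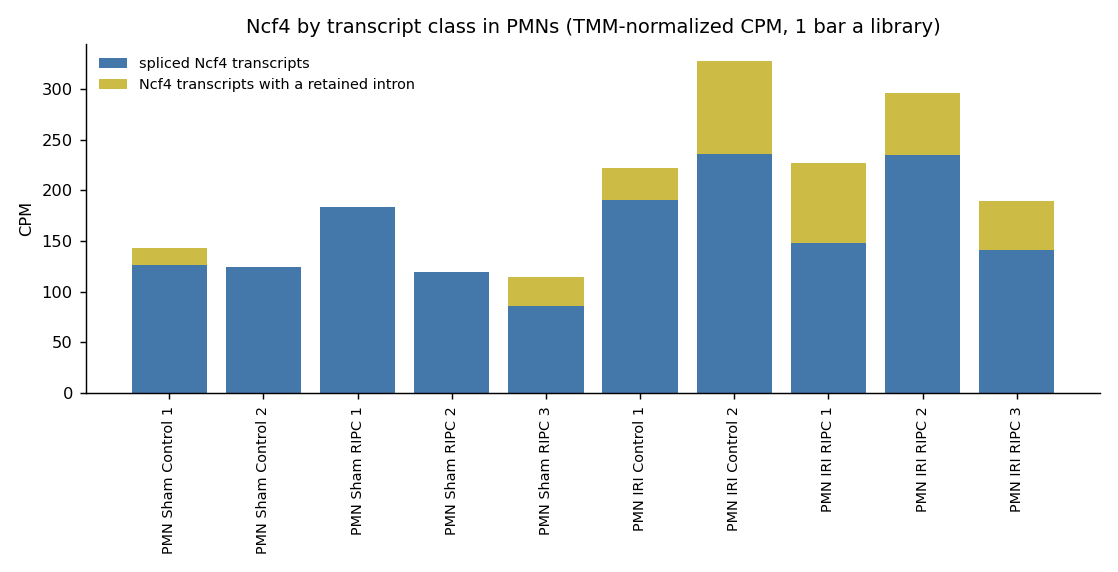
Ncf4 level in CPM in each PMN library, divided into spliced and retained-intron transcripts. The retained-intron part is 0 to 29.39 CPM after sham surgery and 31.8 to 92.09 CPM after IRI.

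Cyba and Rac2 were each read almost wholly as 1 transcript. Cyba-201 held 96.7% of the Cyba reads in PMNs and 96.9% in TECs, and Rac2-201 held 95% and 100% of the Rac2 reads. Cyba lies within the locus Gm20388 on the opposite strand, but Cyba-201 and Cyba-202 share 0 of their stretches of 50 bases with another gene. Ncf1 overlaps Gtf2ird2 on the opposite strand, and 5.7% of such stretches in Ncf1-202 and 8.2% in Ncf1-205 also occur in other genes, Gtf2ird2 among them. The counting is not stated to have used strand, so reads from those stretches cannot be told apart.

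Genes that act with the oxidases were read in 4 lists. Of 19 activators and regulators, 8 were called higher and 0 lower in PMNs than in TECs after sham surgery, against 1.49% and 1.13% of all genes, with a median difference of 3.93 log2 units over the list and 0 over all genes. After IRI 5 were higher and 1 lower, against 1.49% and 1.17%. Those higher after sham surgery included the Rac exchange factors Dock2 (7.77 ± 1.31, adjusted p = 0.00151) and Prex1 (7.69 ± 1.45, adjusted p = 0.00417). Vav1, another exchange factor, averaged 61.4 ± 48.5 CPM in sham PMNs (SD, n = 5) and 0.119 ± 0.292 CPM in sham TECs (SD, n = 6, adjusted p = 0.00435). The kinase Syk averaged 67.8 ± 40.7 CPM in sham PMNs and 0.228 ± 0.558 CPM in sham TECs (adjusted p = 0.00196). After IRI the genes higher in PMNs included Prkcd, a kinase of p47phox (3.12 ± 0.63, adjusted p = 0.008), and Arhgdib, which holds Rac proteins in the cytosol (720 ± 153 CPM in PMNs and 4.09 ± 8.94 CPM in TECs, SD, n = 5 each, adjusted p = 0.016). The gene lower in PMNs was Poldip2, a partner of Nox4 through p22phox, at 18.2 ± 7.64 CPM and 98.4 ± 17.7 CPM in TECs (-2.42 ± 0.58, adjusted p = 0.0267). It is named because its direction was the only one of its kind in the list, a choice made after its value was seen. No regulator was called between IRI and sham surgery in either cell type in edgeR, with 2 higher in PMNs and 1 higher in TECs at an unadjusted p below 0.05, a level that 11.8% and 15% of all genes reached in either direction. Syk in PMNs averaged 390 ± 105 CPM after IRI (SD, n = 5, lowest 301) and was not called. Its IRI libraries lay above all sham libraries (0 to 98.6 CPM), as held for 3.43% of all genes. Rac1, the broadly expressed relative of Rac2, stood at 139 ± 13.7 CPM in sham TECs (SD, n = 6) and 245 ± 158 CPM in IRI TECs (SD, n = 5), a difference of 0.76 (adjusted p = 0.328). Of 7 other oxidase genes, 5 to 7 of which could be tested, none was called in any comparison in edgeR, and at most 1 was higher and 1 lower at an unadjusted p below 0.05.

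Of 12 genes that supply NADPH, 2 were called lower and 0 higher after IRI in TECs, where 1.4% of all genes were called. Idh2, the mitochondrial NADP-dependent isocitrate dehydrogenase, went from 689 ± 143 CPM (SD, n = 6) to 173 ± 69.3 CPM (SD, n = 5), a change of -2.03 ± 0.35 log2 units (adjusted p = 0.0131). The cytosolic Idh1 went from 1350 ± 233 CPM to 513 ± 139 CPM, a change of -1.43 ± 0.29 (adjusted p = 0.0293). Taldo1, of the pentose phosphate pathway, differed by 1.02 (adjusted p = 0.129). In PMNs none of the 12 was called between IRI and sham surgery in edgeR, with 1 higher and 2 lower at an unadjusted p below 0.05, as were 11.8% of all genes in either direction. Idh1 was also the 1 gene of this list called between cell types, at -3.16 in sham PMNs (adjusted p = 0.000376) and -3.03 after IRI (adjusted p = 0.000956) relative to TECs.

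Of 9 genes that remove superoxide or peroxide, 1 was called lower and 0 higher after IRI in TECs, against 1.4% of all genes. This was catalase, Cat, at 1030 ± 333 CPM (SD, n = 6) after sham surgery and 357 ± 130 CPM (SD, n = 5) after IRI (-1.6 ± 0.32, adjusted p = 0.0273). In PMNs none passed between IRI and sham surgery in edgeR (1 higher and 4 lower at an unadjusted p below 0.05, against 6.85% and 4.98% of all genes). The lowest p-values among them were those of the peroxiredoxins Prdx6 at 156 ± 62.3 CPM and 541 ± 77.8 CPM (1.72, adjusted p = 0.152) and Prdx2 at 134 ± 61 CPM and 30.3 ± 14.1 CPM (-2.01, adjusted p = 0.155), after sham surgery and IRI respectively (SD, n = 5 each). Relative to TECs, PMNs were lower in 2 of the 9 after sham surgery (Cat and Prdx1) and in 4 after IRI, against 1.13% and 1.17% of all genes. After IRI Prdx1 differed by -3.34 (adjusted p = 0.00012), Cat by -2.52 (adjusted p = 0.0106), Prdx2 by -2.18 (adjusted p = 0.0149) and the cytosolic superoxide dismutase Sod1 by -1.75 (adjusted p = 0.0219).

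Across the 10 PMN libraries the cytosolic subunits had similar profiles, with Pearson's r of log2(CPM + 1) of 0.752 between Ncf1 and Ncf4, 0.758 between Ncf1 and Rac2 and 0.774 between Ncf4 and Rac2. Cyba did not follow them (-0.152 with Ncf1, -0.218 with Ncf4, 0.315 with Rac2), and Nox4 ran opposite to Ncf4 (-0.857). Over the 11 TEC libraries Nox4 and Cyba gave 0.862. The genes with the profile most like each member's were Smim8 (0.973), Chac2 (0.963) and Rdh5 (0.957) for Cyba in PMNs. For Ncf1 they were Cpne2 (0.97), Gpi1 (0.961) and Pygl (0.947), the last a glycogen phosphorylase and Gpi1 a glycolytic isomerase. Those for Ncf4 were Lrrc25 (0.968), Azi2 (0.945) and Sirpb1b (0.942), and those for Rac2 were Taldo1 (0.953), Ecm1 (0.943) and the actin-binding Pfn1 (0.935). In TECs the genes nearest to Nox4 were the kidney cadherin Cdh16 (0.982), Nicn1 (0.969) and Lpar3 (0.969). These values describe libraries that share the surgery groups and their marker sums, and were not tested.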

How the data were processed

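Libraries were made by poly(A) reverse transcription with template switching and sequenced as single-end 50-base reads. The authors trimmed with Trim Galore 0.6.4 and deposited, in 2 files per library, expected counts per transcript estimated by Salmon 1.0.0, not normalized. Both files were summed, and transcripts were summed to genes with Gencode M21 (139864 of 140748 transcripts matched, the rest holding 0.139 to 0.255% of reads) and rounded. Genes of the sex chromosomes and mitochondria (3717 genes, 3.1 to 30.5% of reads) were left out. Levels are CPM with TMM factors. Tests used edgeR 4.0.16 (quasi-likelihood, filterByExpr, R 4.3.3), fitted to the 4 groups of a cell type, or to all 8 for PMNs against TECs, with Benjamini-Hochberg adjustment over all genes tested. All 5 genes passed the filter in each fit. DESeq2 1.42.0 (Wald test and apeglm 1.24.0 shrinkage) and the settings listed in the closing section were alternatives. The test was checked on simulated counts. Libraries of 1 group correlated at 0.663 to 0.883 (log2(CPM + 1)), so none was a duplicate of another in its group. Duplicates between groups were not looked for. Named genes were the 5 members, the 4 listed genes of lowest p per list and comparison, and the 3 most alike genes. The members and lists were chosen with earlier results of these data known.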

Additional observations from a re-analysis of the deposited data

How the results depend on the processing

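Of the members' differences between groups, 544 kept direction and side of the threshold under the settings other than leaving out a library, 13 turned direction, 7 lost a call and 9 gained one. Counts of called genes moved far more. Without the filter on low counts they were, for RIPC against control, 139 (from 1) in sham PMNs, 18 (from 0) in PMNs after IRI, 54 (from 0) in sham TECs and 71 (from 1) in TECs after IRI. For IRI against sham surgery they were 971 (from 104) in PMNs and 1289 (from 363) in TECs, for PMNs against TECs 2222 (from 832) after sham surgery and 1763 (from 847) after IRI, and for the interactions (from 0) 101 in PMNs, 84 in TECs and 722 between cell types. In the same order DESeq2's Wald test called 813, 429, 425, 699, 1955, 2234, 4753, 3725, 669, 597 and 2395, and apeglm 571, 90, 49, 277, 2074, 2506, 3806, 2967, 302, 155 and 1256. In sham PMNs the RIPC count was 0 with the second file of each library alone or with the compared groups alone, and in TECs after IRI it was 2 with the first file, 4 with robust dispersion and 0 with the compared groups alone. The interaction of cell type and surgery called 1 with either file alone and 5 with robust dispersion. The cause was not tested.

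Leaving out 1 library at a time, the counts ran from 0 to 11 for RIPC in sham PMNs, 1 to 22 for RIPC in TECs after IRI, 5 (without PMN IRI RIPC 2) to 393 (without PMN sham control 1) for IRI in PMNs, 92 (without TEC sham control 2) to 714 (without TEC IRI RIPC 3) for IRI in TECs, 549 to 1037 for PMNs against TECs after sham surgery and 560 to 815 after IRI, 0 to 15 for the TEC interaction and 0 to 124 for that of cell type and surgery. A lone library in a group was assumed to vary like the others.

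The replicate numbers are shared between groups. Deviations of same-numbered libraries correlated at -0.023 to 0.03 in PMNs and -0.106 to 0.139 in TECs. Of the libraries, 6 of 10 PMN and 4 of 11 TEC ones correlated best with their own number. PMN libraries were not compared with TEC libraries in this way. Whether same-numbered libraries share an animal therefore remains unknown. With the replicate number as a block 23 genes were called for IRI in PMNs, 0 for RIPC in sham PMNs and 3 for RIPC in TECs after IRI. With this replicate block Nox4 differed by -1.7 between PMNs and TECs after IRI (adjusted p = 0.0848), Rac2 by 0.21 for RIPC in PMNs after IRI and by -0.05 for cell type and surgery.

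Further turns of direction were all in differences that passed no threshold. Against transcript length, the interaction in PMNs was -0.09 for Rac2 and -0.18 for Nox4, the RIPC difference of Nox4 in sham TECs 0.01 and its cell type and surgery term -0.02. With the processed and retained-intron transcripts left out, a setting added after seeing the data, RIPC in PMNs after IRI gave 1.84 for Nox4, and cell type and surgery gave -1.18 for Nox4 and -2.27 for Ncf4. The RIPC difference of Cyba in sham TECs was 0.01 with either file alone or the compared groups alone, and Rac2 for cell type and surgery was -0.08 with the second file. Length also ended the Ncf4 call after sham surgery (5.43, adjusted p = 0.0723). DESeq2's size factors (-1.67, adjusted p = 0.051) and no filter (-1.72, adjusted p = 0.204) ended the Nox4 call after IRI, and no filter ended it after sham surgery (-1.85, adjusted p = 0.101).

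Leaving out 1 library turned these directions, given as lowest to highest. For RIPC in sham PMNs, Cyba ran from -0.71 to 0.21, Ncf4 from -0.22 to 0.16 and Nox4 from -0.59 to 0.3. For RIPC in PMNs after IRI, Cyba ran from -0.05 to 0.41, Ncf4 from -0.5 to 0.07, Rac2 from -0.43 to 0.23 and Nox4 from -0.23 to 0.08. For the PMN interaction, Cyba ran from -0.05 to 0.85, Ncf4 from -0.53 to 0.04, Rac2 from -0.07 to 0.55 and Nox4 from -0.38 to 0.5. For RIPC in sham TECs, Cyba ran from -0.18 to 0.1 and Nox4 from -0.29 to 0.15, and after IRI Cyba from -0.47 to 0.04 and Ncf1 from -5.91 to 6.07. For IRI in TECs, Ncf1 ran from -2.76 to 4.28 and Ncf4 from -5.64 to 0.25. For the TEC interaction, Cyba ran from -0.41 to 0.08, Ncf1 from -13.36 to 0.68 and Rac2 from -1.06 to 0.22, and for cell type and surgery Ncf1 ran from -2.32 to 4.67 and Rac2 from -0.29 to 0.3.

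Of 120 group levels under the planned settings 117 moved by less than 1 SD. Rac2 in PMN sham control was 366 CPM with DESeq2's size factors, and in TEC IRI control 1.28 and 1.78 CPM with the first and the second file. Without Nox4-204, also added after seeing the data, Nox4 was 36.4, 17.3, 1.97 and 7.32 CPM in PMN sham control, sham RIPC, IRI control and IRI RIPC, and 78.1 CPM in TEC IRI control. Values of Ncf1 and Ncf4 in TECs rest on few reads, and under some settings those genes fell below the filter and gave no value.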
